A study of Mus musculus with 2 samples.

Results

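The genes of the oxygen-sensing machinery were examined in LM8 cells, a mouse osteosarcoma line, with and without human prolyl hydroxylase domain protein 4 (PHD4). The set held 10 genes, chosen by name as the enzymes that hydroxylate hypoxia-inducible factor (HIF), the HIF subunits and Vhl: Egln1, Egln2, Egln3, Hif1an, Hif1a, Epas1, Hif3a, Arnt, Arnt2 and Vhl. Of the 12393 genes on the array, 9 of these 10 had at least 1 probe set assigned to their symbol alone, 18 probe sets in all. Hif1an, which encodes the asparaginyl hydroxylase FIH, had 0 and is not analysed here.

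The comparison asked how transcripts differed between a stably transfected LM8 clone carrying a full-length human PHD4 cDNA in pcDNA3.1 (the hPHD4 clone) and a clone carrying the empty pcDNA3.1 vector (the control clone). Both were grown in medium with 0.5 mg/ml G418, the drug that selects for the vector, and 5 µg of total RNA per clone was labelled for Affymetrix mouse arrays. Each condition was 1 clone on 1 array, so the effect of the transgene and differences between clones cannot be told apart, and without replicates nothing here was tested. Values are log2 signals made with MAS5, Affymetrix's summary of the probes of a probe set. A probe set was called measured when it lay above the 40th percentile of its array on both arrays, a log2 signal of 6.34 in the hPHD4 clone against 6.08 in the control clone. Of the 12393 genes, 7452 were measured, and 8 of the 10 oxygen-sensing genes were among them. Their ratios are log2 differences, hPHD4 clone minus control clone, averaged over the measured probe sets of a gene.

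With oxygen present, the EGLN enzymes (also called PHDs) hydroxylate prolines of the HIF alpha subunits, and the VHL protein then binds the hydroxylated subunit and directs it to the proteasome. FIH hydroxylates an asparagine of HIF alpha and thereby keeps the coactivators p300 and CBP away. When oxygen is scarce, HIF alpha persists, pairs with ARNT and switches on genes such as Egln1 and Egln3 themselves. The amounts of HIF-1 alpha and HIF-2 alpha are set largely through protein breakdown, which a measurement of transcripts does not show. Human PHD4 is a further prolyl hydroxylase, anchored in the membrane of the endoplasmic reticulum.

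P4htm, the mouse gene of PHD4, had 0 probe sets of its own on the array, and the array could not show whether the labelled clone carried the transgene. The cells carried the transcripts of their lineage. Of 10 osteoblast markers, the 7 with a probe set of their own (Sp7, Alpl, Col1a1, Col1a2, Ibsp, Dlx5 and Pth1r) passed both floors, with summed linear signals of 26210 and 29053. Col1a2 gave the largest part of these sums, at 12598 and 17021. By ratio, 5 of the 7 were above 0 and 2 below, with a median of 0.23. They spanned −0.43 for Col1a2 to 1.09 for Ibsp, so the clones were not alike in every marker. Of the 6 epithelial markers 0 were measured, and of the 6 leukocyte markers on the array 3 were. Krt8 of the epithelial list and Cd3e of the leukocyte list passed the floor in the hPHD4 clone alone. Their highest log2 signals were 7.44 and 6.47 there, against 5.89 and 4.75 in the control clone. The summed linear signals, hPHD4 clone first, were 158 and 81.9 for the epithelial list and 432 and 284 for the leukocyte list, and fewer cells of a type and less RNA per cell cannot be told apart in such bulk samples. As a sign of RNA quality, the 3′ signal of the actin control exceeded its 5′ signal by 0.90 in the hPHD4 clone against 0.66 in the control clone, as log2. For the Gapdh control the same difference was −0.03 and −0.13.

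Among the 8 measured members, Epas1 alone passed 1.5-fold upward in the hPHD4 clone and 0 passed it downward. Over the whole array 8.94% of the measured genes passed 1.5-fold upward and 5.22% downward, so 1 of 8 is near the share of the whole array. The higher genes made up 63.1% of all genes past 1.5-fold. That share was 50.9% after quantile normalization and 50.8% after loess correction. It was 97.0% when the arrays were scaled to the hybridization controls, transcripts added in set amounts before hybridization. Ratios above 0 were held by 6 of the 8 members and by 53.6% of all measured genes. The median ratio of the members was 0.25, beside 0.03 for all measured genes. The measured members spanned −0.10 to 1.14. As the only measure of error these arrays offer, the SD of the log2 ratio among probe sets that share a gene was 0.40 for the dimmest of 3 brightness groups of genes, 0.37 for the middle and 0.28 for the brightest. This SD covers disagreement of single probe sets only, not differences between cultures or arrays. Epas1 and Egln2 lay farther from 0 than the SD of their group, and the other 6 did not. The share of all measured genes past this SD was not counted, so the SD does not set these genes apart from the array. Even past 1.5-fold, a wider cut at 0.58, there were 21.8% of the dimmest group, with Epas1, and 12.9% of the middle group, with Egln2.

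**Figure D1:**
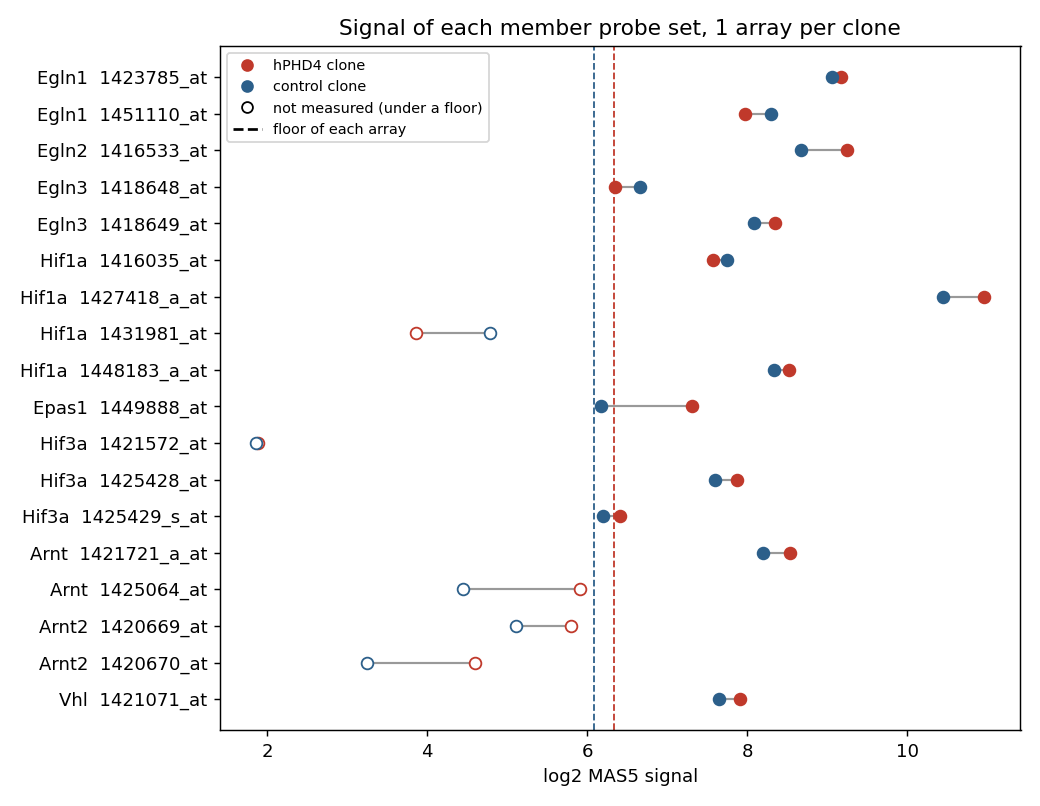
Log2 MAS5 signal (x axis) of each of the 18 member probe sets (rows), in the hPHD4 clone (red) and the control clone (blue), 1 array each; dashed lines are the floors of 6.34 and 6.08, and open circles are probe sets that were not measured. The gap between the clones within a row is the difference reported, and levels of different rows are not comparable. Among the filled rows the gap is widest for Epas1, whose control signal lies at the floor.

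The 3 prolyl hydroxylase genes differed in how firmly they could be read. Egln2 encodes PHD1, a mainly nuclear enzyme. Its only probe set, 1416533_at, had linear signals of 608 in the hPHD4 clone against 408 in the control clone. Both signals lay well over the floors, by 2.91 and 2.59 on the log2 scale. The ratio was 0.57, or 1.49-fold higher in the hPHD4 clone, which is just under the 1.5-fold threshold and 1.57 times the SD of its brightness group. It stood at the 90.8th percentile of all measured genes and at the 92.5th of the 2484 genes in its group. Egln2 lies on chromosome 7, where the median ratio of 532 measured genes was 0.19. The 10 nearest measured genes, 5 on either side, had a median of 0.31, and 7 of them were above 0. Less the chromosome median, the ratio of Egln2 was 0.39.

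Egln1 encodes PHD2, the main oxygen sensor among the HIF hydroxylases. Probe set 1423785_at had linear signals of 577 in the hPHD4 clone against 534 in the control clone. The second, 1451110_at, had signals of 252 and 314. The first was thus slightly higher in the hPHD4 clone and the second lower, at log2 ratios of 0.11 and −0.32. Their mean of −0.10 was smaller than the SD between them, 0.30, and no direction can be read for Egln1.

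Egln3 encodes PHD3, the family member whose transcript is known for a strong rise in hypoxia. Its probe set 1418649_at had linear signals of 325 in the hPHD4 clone against 272 in the control clone, a log2 ratio of 0.26. Probe set 1418648_at had signals of 81.1 and 101 and a ratio of −0.32. This probe set barely counted as measured, since the floor in the hPHD4 clone was 81.1. As for Egln1, the probe sets lay on opposite sides of 0, and their mean of −0.03 was far smaller than the SD of 0.40 between them. When the floor was raised to the 60th percentile, 1418648_at dropped out and the ratio of Egln3 was 0.26.

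The stretches upstream of the prolyl hydroxylase genes are shown because HIF binds DNA at short cores, written here as ACGTG and GCGTG, and Egln1 and Egln3 are known HIF targets. The sequences are from RefSeq, build GRCm38.p6, and cover the 250 bases before the annotated gene start, all 3 on the minus strand. Capitals mark matches to either core on either strand. Egln2 has a second annotated start, and the one with more matches is shown.
Egln1 at chr8:124949255-124949504: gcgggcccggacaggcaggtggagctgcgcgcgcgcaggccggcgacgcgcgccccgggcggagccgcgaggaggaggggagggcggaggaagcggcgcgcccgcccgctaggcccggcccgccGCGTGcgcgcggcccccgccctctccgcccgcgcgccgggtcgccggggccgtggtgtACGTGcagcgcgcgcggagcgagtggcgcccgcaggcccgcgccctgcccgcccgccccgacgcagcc
Egln2 at chr7:27166803-27167052: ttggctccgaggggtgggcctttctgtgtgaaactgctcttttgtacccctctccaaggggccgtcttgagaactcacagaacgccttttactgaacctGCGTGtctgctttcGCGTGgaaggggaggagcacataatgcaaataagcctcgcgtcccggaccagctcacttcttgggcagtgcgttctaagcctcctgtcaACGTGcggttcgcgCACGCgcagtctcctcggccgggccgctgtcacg
Egln3 at chr12:54203875-54204124: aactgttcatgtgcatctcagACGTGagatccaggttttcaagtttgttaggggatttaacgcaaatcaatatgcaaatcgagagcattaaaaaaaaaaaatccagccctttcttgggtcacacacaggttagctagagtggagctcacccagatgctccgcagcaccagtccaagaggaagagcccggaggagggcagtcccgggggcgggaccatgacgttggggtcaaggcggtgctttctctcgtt

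The Egln1 window held 2 matches, beginning 126 and 68 bases before the start, the Egln2 window 4, at 151, 137, 48 and 34 bases, and the Egln3 window 1, at 229 bases. The other Egln2 start had 1 match. Promoter windows were found for 9 of the 10 members, all but Epas1. Of their 10 windows 7 held a match, beside 38.6% of the 32851 windows of the same length in the RefSeq table. Egln2 counts 2 times here, and by gene 6 of the 9 held a match. The share of all windows was not matched for base composition. G and C made up from 48% (the other Egln2 start) to 86% (Egln1) of the members' windows. ACGTG occurred in 16.6% of all windows and GCGTG in 28.2%, windows with both cores counting in each share. The Hif1a window held 3 matches, of which a pair overlap because ACGTG on either strand makes up CACGTG. The Hif3a window held 2 and the Arnt window 1, while those of Hif1an, Arnt2 and Vhl held 0. A match describes the letters of a window and does not show that HIF binds there.

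**Figure D2:**
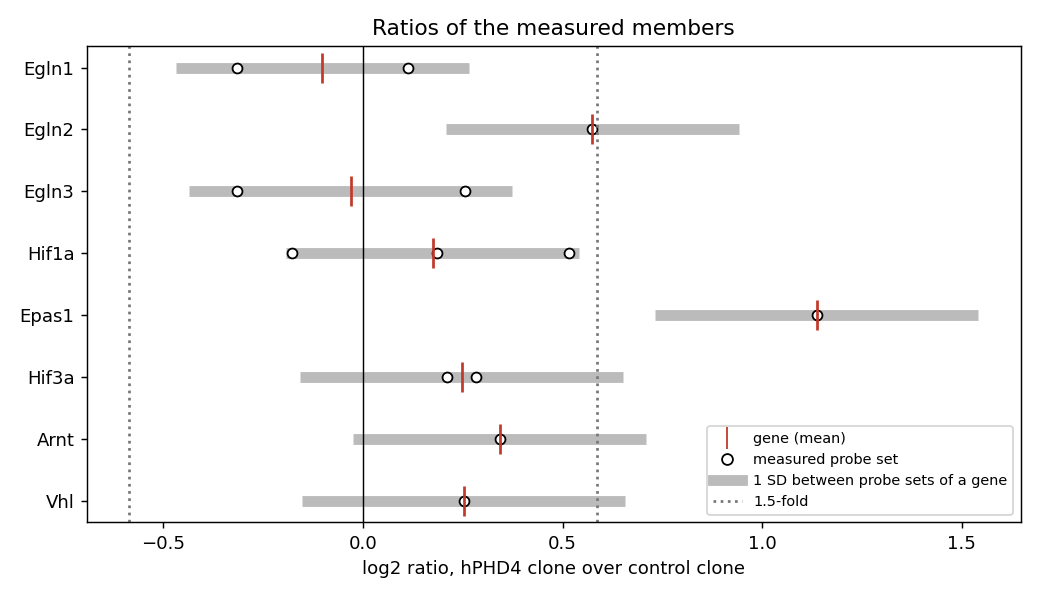
Log2 ratio of the hPHD4 clone over the control clone (x axis) for the 8 measured members (rows). Open circles are measured probe sets, red bars the mean per gene, grey bands 1 SD between probe sets of a gene at that brightness on either side of the mean, and dotted lines 1.5-fold. The bands of Epas1 and Egln2 do not reach 0, while the probe sets of Egln1, Egln3 and Hif1a lie on both sides of 0.

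Epas1 had the highest ratio of the set. It encodes HIF-2 alpha, the alpha subunit best known from endothelium, kidney and the control of erythropoietin. Its only probe set, 1449888_at, had linear signals of 159 in the hPHD4 clone against 72.1 in the control clone. The hPHD4 clone was thus 2.20-fold higher, a log2 ratio of 1.14. The control signal was only 0.09 above the floor of its array on the log2 scale, and the signal in the hPHD4 clone was 0.97 above. Of the 7452 measured genes 83 had a higher ratio, which places Epas1 at the 98.9th percentile, and 1.89% of the measured genes were 2-fold higher or more. In the dimmest group, to which Epas1 belongs, 21.8% of genes were past 1.5-fold in either direction, against 12.9% in the middle group, and 16.3% were past it upward. Within that group of 2484 genes Epas1 stood at the 98.1th percentile. The ratio was 2.81 times the SD of the group.

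Epas1 had a higher ratio than each of its 10 nearest measured genes. These ranged from −0.48 to 0.66 with a median of 0.09, and 5 of them were above 0. On chromosome 17 the median of 373 measured genes was −0.17. Because Epas1 is abundant in endothelial cells, endothelial markers are given beside it. Of 7 markers with probe sets, 2 passed both floors: Kdr, the main VEGF receptor, at 0.07 and Vwf, von Willebrand factor, at −0.58. The summed linear signal of the list was 536 in the hPHD4 clone against 459 in the control clone, with 0 probe sets at exactly 0. The other 5 were not measured. For each, the highest signal among its probe sets, taken on each array by itself, was higher in the hPHD4 clone. These highest log2 signals, hPHD4 clone first, were 6.61 and 0.94 for Emcn, 6.16 and 3.14 for Cdh5, 3.79 and 3.27 for Pecam1, 4.94 and 4.49 for Tek, and 1.59 and 1.37 for Tie1. Of these signals that of Emcn in the hPHD4 clone alone lay above its floor, of 6.34. The part of these markers in the Epas1 ratio was not tested. After quantile normalization the ratio of Epas1 was 0.95 and after loess correction 0.93, and a floor at the 60th percentile left the gene unmeasured.

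Hif1a encodes HIF-1 alpha, the broadly expressed alpha subunit. Of its 4 probe sets 3 were measured. The brightest, 1427418_a_at, had linear signals of 1992 in the hPHD4 clone against 1393 in the control clone, a log2 ratio of 0.52. Probe set 1448183_a_at followed at 366 and 322, a ratio of 0.19, and 1416035_at was at 190 and 215, a ratio of −0.18. So 2 of the 3 were higher in the hPHD4 clone and 1 was lower, and their mean of 0.17 was smaller than the SD of 0.35 between them. The fourth, 1431981_at, lay under both floors, at 14.5 and 27.5. Read from the brightest probe set alone, Hif1a was at 0.52, still under 1.5-fold. The 10 nearest measured genes on chromosome 12 had a median of −0.28, and 2 of them were above 0.

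Hif3a encodes HIF-3 alpha, whose splice variants in the mouse include IPAS, an inhibitor of the other alpha subunits. Probe set 1425428_at had linear signals of 235 in the hPHD4 clone against 193 in the control clone. Probe set 1425429_s_at had signals of 85.3 and 73.7, just above the floors of 81.1 and 67.8. Its remaining probe set, 1421572_at, was under the floor in both clones, at 3.70 and 3.64. Both measured probe sets were slightly higher in the hPHD4 clone, at log2 ratios of 0.28 and 0.21. The SD between them was 0.05, from only 2 probe sets. Their mean of 0.25 was larger than that but smaller than the SD of 0.40 for single probe sets of genes of its brightness. It was 0.06 once the median of chromosome 7 was subtracted. The probe sets do not tell the splice variants apart by any annotation used here.

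The partners of the alpha subunits are ARNT, present in most cells, and ARNT2, found mainly in nervous tissue and kidney. Arnt probe set 1421721_a_at had linear signals of 371 in the hPHD4 clone against 293 in the control clone, a log2 ratio of 0.34, or 1.27-fold higher, just inside the SD of 0.37 for its brightness. The other Arnt probe set, 1425064_at, lay under both floors, at linear signals of 60.1 and 21.8. A floor at the 20th percentile let it count, and the ratio of Arnt became 0.90. Both probe sets of Arnt2 lay under both floors, 1420669_at at 55.8 and 34.5 and 1420670_at at 24.3 and 9.52. Arnt2 was therefore not measured, and no fold is given for it at this floor. A floor at the 20th percentile let 1 probe set count, with a ratio of 0.70, or 1.62-fold, at signals where probe sets were dim in both clones.

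Vhl encodes the substrate receptor of the ubiquitin ligase that takes up hydroxylated HIF alpha. Its only probe set, 1421071_at, had linear signals of 240 in the hPHD4 clone against 201 in the control clone. The ratio was 0.25, or 1.19-fold higher in the hPHD4 clone, against an SD of 0.40. It stood at the 72.0th percentile of all measured genes. The chromosome 6 median was 0.00, and the 10 nearest measured genes had a median of −0.07.

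**Figure D3:**
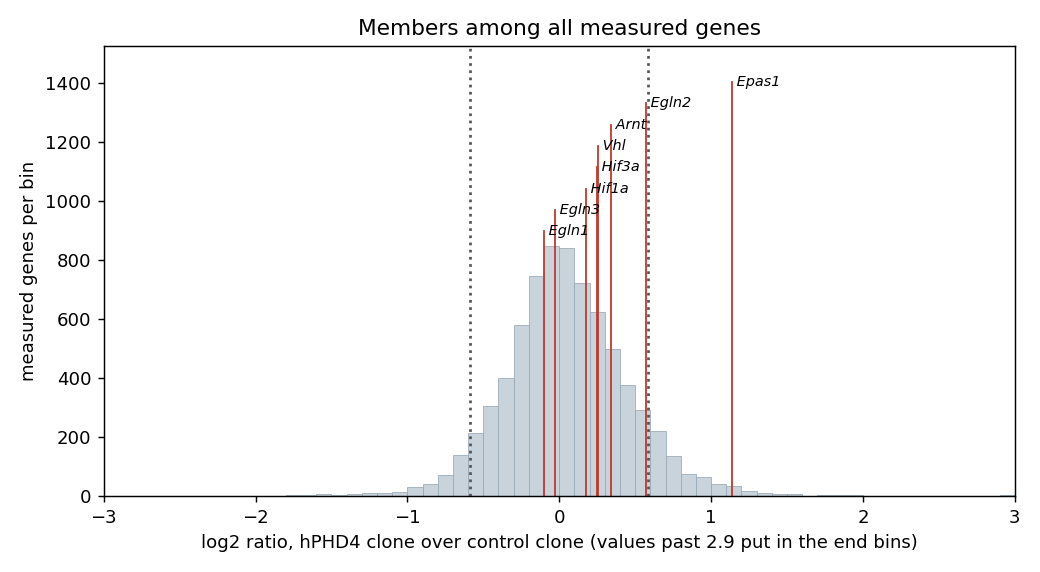
Number of measured genes (y axis) in bins of 0.1 of the log2 ratio, hPHD4 clone over control clone (x axis), for all 7452 measured genes, with the 8 measured members as red lines and 1.5-fold as dotted lines. Epas1 lies in the upper tail at 1.14, Egln2 at 0.57 just inside 1.5-fold, and the other 6 within the bulk of the distribution.

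The number of probe sets behind a gene went with how often it passed the threshold. Over the whole array 17.6% of measured genes with 1 measured probe set were past 1.5-fold in either direction, beside 8.36% of those with at least 2. Epas1, Egln2, Arnt and Vhl rested on 1 measured probe set each, and Egln1, Egln3, Hif1a and Hif3a on 2 or 3. The genes with the higher ratios in the set, Epas1, Egln2 and Arnt, were thus all among those read from 1 probe set. At the level of probe sets, 13 of the 18 were measured, and 10 of these were higher in the hPHD4 clone and 3 lower. The share of all measured probe sets that were higher was not counted. Among all measured genes it was 53.6%. Past 1.5-fold there was 1 member probe set, that of Epas1, beside 16.3% of all measured probe sets. The 5 that were not measured lay under the floor on both arrays.

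The other genes that act on HIF were described from lists. In the VHL ligase list, which covers the adaptor and scaffold subunits, ubiquitin-conjugating enzymes and deubiquitinases linked to VHL, 10 of 11 genes were measured, all but Rbx1. None of the 10 was past 1.5-fold, beside 14.2% of all measured genes. Their median ratio was −0.07, with 4 above 0 and 6 below. The measured subunits that join VHL in the ligase were at −0.42 for Elob (elongin B), −0.38 for Eloc (elongin C) and −0.29 for Cul2, the cullin scaffold. Under scaling to the hybridization controls, which raised every gene alike, they were at −0.03, 0.01 and 0.10. The direction of Eloc and Cul2 thus holds only relative to the scaling, and Elob was close to 0 under it. Elob was above 0 in 0 of 12 settings, Eloc in 1 and Cul2 in 4. Vhl itself was at 0.25. The highest of the list was Usp20, a deubiquitinase that VHL binds, at 0.55. Elob, Eloc and Cul2 were chosen after their values were seen.

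Regulators of the stability of HIF alpha or of the hydroxylases were measured for 12 of 19 listed genes. The median was −0.06, with 1 gene at least 1.5-fold higher and 0 lower. The higher gene was Wdr83, whose product MORG1 is known as a scaffold that binds PHD3, at 0.92 on 1 probe set, with linear signals of 281 in the hPHD4 clone against 149 in the control clone. The lowest was Fkbp8, encoding FKBP38, which binds PHD2 and lowers its stability, at −0.55, with signals of 548 and 804. Both were read from 1 probe set.

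Of 8 coactivator genes and their competitors 4 were measured, 0 of them past 1.5-fold, with a median of 0.13. All 4 lay above 0 as reported, but Cited2, Ncoa1 and Ncoa2 lay below it under some settings (lowest −0.04, −0.16 and −0.21). The highest was Cited2, which competes with HIF alpha for p300 and CBP, at 0.37, and the lowest Ncoa1 at 0.03. Crebbp, which encodes CBP, had 1 probe set that was not measured, and Ep300 had 0 probe sets of its own. Among other genes of the bHLH-PAS family, to which the HIF subunits belong, 5 of 14 were measured, with a median of −0.04. Clock, a core gene of the circadian oscillator, was 1.78-fold lower in the hPHD4 clone, a ratio of −0.83, with linear signals of 219 and 390 and an SD of 0.06 between its 2 probe sets. Its partner Arntl (BMAL1) was the highest of the list at 0.50. Ahr, which pairs with ARNT in the response to dioxins, was not measured. Counts in these lists are as small as 0 or 1 of 4 to 12 genes and near the background of 14.2%.

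**Figure D4:**
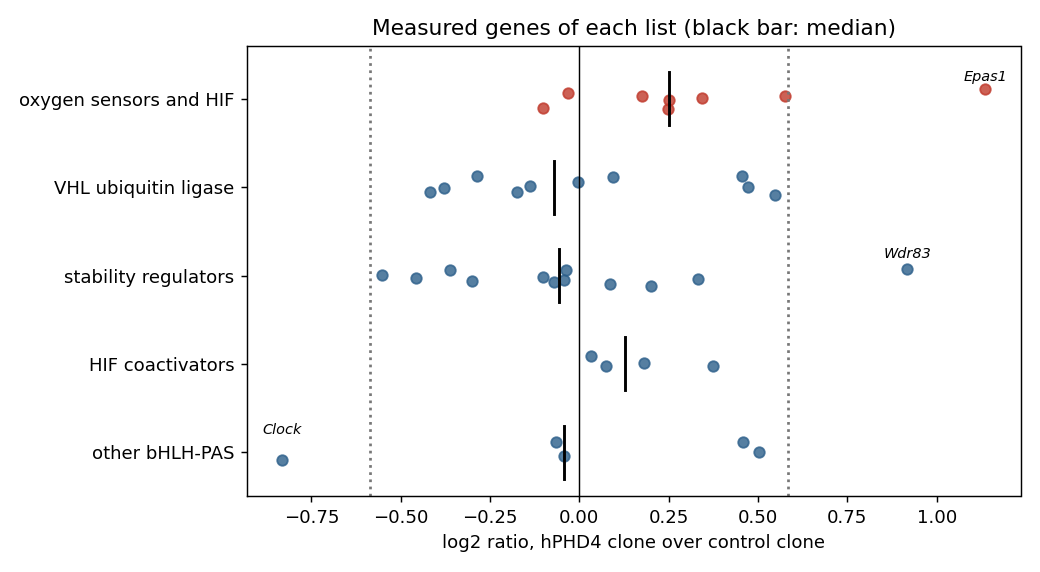
Log2 ratio of the hPHD4 clone over the control clone (x axis) for each measured gene of the oxygen-sensing set (red, 8 genes) and of the lists of VHL ligase genes, stability regulators, coactivators and other bHLH-PAS genes (blue, 10, 12, 4 and 5 genes); black bars are medians and dotted lines 1.5-fold, and the vertical scatter within a list has no meaning. Named points are past 1.5-fold: Epas1 at 1.14, Wdr83 at 0.92 and Clock at −0.83.

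The ratios were recomputed with other scalings, floors and choices of probe set. Egln2, Hif1a, Arnt, Epas1, Hif3a and Vhl stayed above 0 in all settings in which they were measured. Egln2 ranged from 0.39, with the chromosome median subtracted, to 0.96, with scaling to the hybridization controls, and was past 1.5-fold in 1 of 12 settings. Epas1 ranged from 0.93 to 1.52 and was past 1.5-fold in all 11 settings in which it was measured. Epas1, Egln2 and Vhl have 1 probe set each. A moved floor or another choice of probe set could thus only keep or drop them at the same ratio, and such settings are no check on them. Raising dim signals to a floor did change Epas1, to 0.97, because its control signal was itself raised. Egln1 ranged from −0.14 to 0.28 and was above 0 in 2 of 12 settings, and Egln3 ranged from −0.18 to 0.36 and was above 0 in 3 of 12. The scaling to hybridization controls raised the median of all measured genes by 0.39, and each member by the same amount, so the order of the members relative to all genes did not move.

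**Figure D5:**
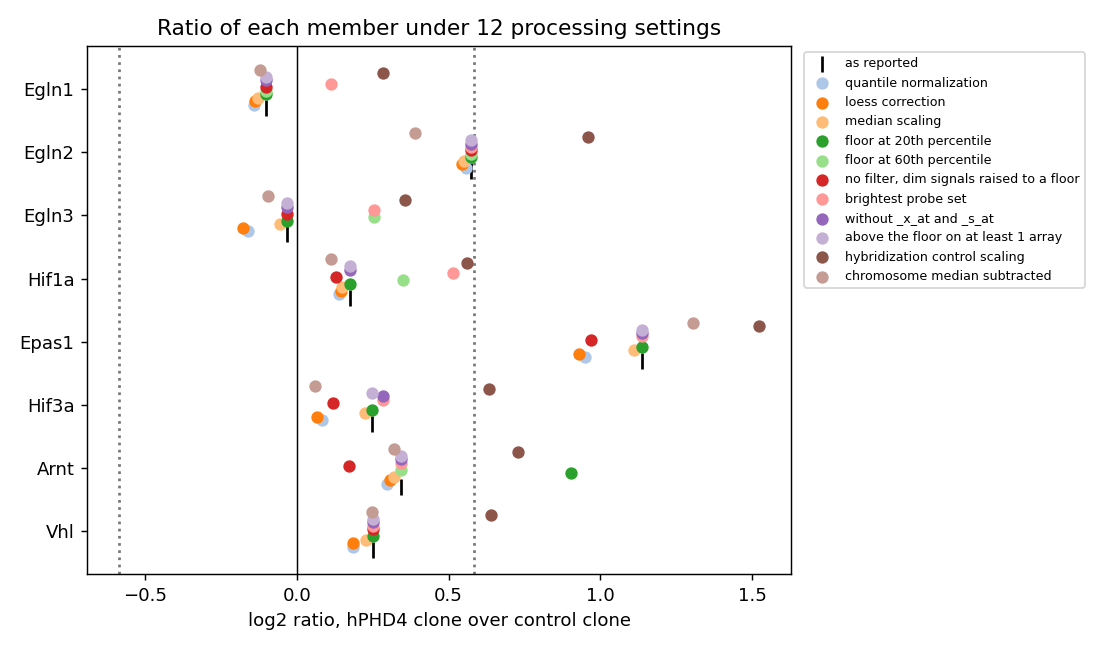
Log2 ratio of the hPHD4 clone over the control clone (x axis) for each measured member (rows) under 12 settings of scaling, floor and probe set (colours; the black bar is the value as reported), with 1.5-fold dotted. Epas1 stays past 1.5-fold, from 0.93 to 1.52, Egln1 and Egln3 lie on both sides of 0, and the brown points, from scaling to hybridization controls, lie 0.39 to the right of the reported values.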

How the data were processed

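Total RNA of 2 stably transfected LM8 clones was hybridised to 1 Affymetrix mouse array each. Per the submitters' processing notes the authors used MAS5, and they deposited 1 log2 signal for each probe set. The version of MAS5 is not given in the sources used here, nor are its settings; detection calls were not used. Base and scale were read from the values, since raising 2 to each value gives a trimmed mean (2% at either end) of 500.2 in both clones. Of 22690 probe sets, 64 were controls, 20380 had 1 gene symbol in the platform annotation, 691 several and 1555 none; only those with 1 symbol were used, and 0 symbols needed an update through RefSeq's GRCm38.p6 gene table, which also gave chromosomes and gene order.

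Groups followed the sample titles. No further scaling was applied. Gene ratios are means over probe sets above the 40th percentile of the non-control probe sets on both arrays. The SD between probe sets of a gene rests on 2800 genes with 7007 probe sets, in 3 equal groups of measured genes by mean signal. A gene under the floor on one array and above the 75th percentile on the other would have been given as a bound; 0 members met this. The genes and lists were chosen with earlier results of these data known. All 10 members were to be named, and from each list the genes past 1.5-fold, the highest and the lowest; likeness of pattern was not computed with 2 arrays. Other choices of scaling, floor, probe set and fold were listed in advance of the computation; scaling to hybridization controls and subtraction of chromosome medians were added after seeing the data. The number of arrays limits the precision. The ratios were computed in Python 3.11.15 with numpy 2.4.6 and pandas 2.3.3, and the steps were tested on simulated data.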

Additional observations from a re-analysis of the deposited data

How the results depend on the processing

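No paired analysis was possible because each group has 1 array, and for the same reason no array could be left out. Of 218 alternative values, 189 stayed close to the reported value, and these include values that a setting could not change. Close meant within the SD between probe sets of a gene for a ratio, and within 1.5 times for a count. For the members' median it meant within that SD over the square root of the number of measured members. Only a ratio reported past 1.5-fold could count as reversed, which here was that of Epas1 alone, and 0 of its values did. With scaling to the hybridization controls, the ratios were 0.28 for Egln1, 0.96 for Egln2, 0.56 for Hif1a and 0.73 for Arnt. The members' median was then 0.64, beside 0.42 for all measured genes. In all, 5 members were at least 1.5-fold higher, as were 32.7% of all measured genes. In that setting 3 VHL ligase genes, 3 stability regulators, 1 coactivator and 2 other bHLH-PAS genes were at least 1.5-fold higher and 0 bHLH-PAS genes lower; all genes shifted by 0.39. With the floor at the 20th percentile more dim probe sets were counted, and Arnt was at 0.90. At that floor 3 members, 1 VHL ligase gene, 2 coactivators and 1 other bHLH-PAS gene were at least 1.5-fold higher and 1 stability regulator lower. Of all genes measured there, 16.4% were higher and 6.64% lower. The floor at the 60th percentile left 5 members and 0 of them, and 0 stability regulators, at least 1.5-fold higher, beside 4.71% of all genes. When 1 array above the floor sufficed, 1 VHL ligase gene, 2 coactivators and 1 other bHLH-PAS gene were higher and 1 stability regulator lower. Of all genes in that setting, 14.7% were higher and 8.57% lower. With dim signals raised to a floor the members' median was 0.13 and 1 stability regulator was lower, beside 3.06% of all genes, and the cause was not tested. With the brightest probe set alone 1 stability regulator was also lower, beside 6.25% of all genes. That was Siah1a, at −0.90. Its 3 probe sets disagreed, with a mean ratio of 0.20 and an SD of 0.96. At 2-fold, 0 stability regulators were higher and 0 other bHLH-PAS genes lower. At the fold threshold tried below 1.5-fold, 3 of the 8 measured members were higher, beside 22.6% of all measured genes. Signals near the floor limit Epas1, Hif3a and Egln3 most.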

Other observations

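The hybridization controls, bacterial and phage transcripts added in set amounts to each sample before hybridization, had lower signals in the hPHD4 clone on 17 of 18 probe sets. Their median log2 ratio was −0.39, with a range from −0.73 to 0.13. The deposited signals carry a global scaling of each array, and the part of this difference in the members' ratios was not tested beyond the scaling to these controls given above.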
